A study of Mus musculus with 9 samples.

Results

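The genes described here encode proteins of the skeletal muscle fibre, and they were read in pooled aortas of atherosclerotic mice. They are the myosin heavy chains Myh1, Myh2 and Myh4, the actin Acta1, the creatine kinase Ckm, the troponin subunits Tnnt3 and Tnni2, the myosin light chain Mylpf, the actinin Actn3 and the calcium pump Atp2a1. All 10 were taken by name, and every probe set (a group of short probes that together read one transcript) that the platform annotation assigns to one of these symbols alone was used. This gave 16 probe sets among 34945 with a single gene and 45101 on the array. Myh1 and Tnni2 had 3 probe sets each, Myh4 and Ckm had 2, and the others had 1.

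All mice were female, lacked apolipoprotein E (APOE-/-, C57BL/6 background) and ate an atherogenic diet with 0.2% cholesterol and 10% coconut oil for 30 weeks; their labelled age is 8 weeks, with no word on the time it refers to. One injection into the tail vein then delivered either HDAd-gE3, a helper-dependent adenovirus (a vector without viral genes) that carries human apolipoprotein E3, or HDAd-0, the empty vector given at the same dose, or the vehicle phosphate-buffered saline (PBS). After 10 days the stretch of aorta between sinus and arch was taken, and every one of the 9 arrays read RNA pooled from 3 mice, with 3 arrays in each group. The labels give 15 mice per group and also 11 for the vector groups, and they do not say which promoter drives the transgene. Array medians lay between 6.67 and 6.77 on the log2 scale and the lowest correlation between arrays, over probe sets, was 0.991. The lower quartile of all probe sets on an array lay between 4.40 and 4.46. Smooth muscle genes, which define the arterial wall, were bright on every array, with Acta2 between 13.88 and 13.98.

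In striated muscle, force comes from myosin heads that pull on actin filaments. Calcium released from the sarcoplasmic reticulum binds troponin C, troponin I and troponin T then let myosin reach actin, and a calcium pump in the reticulum ends the contraction. Adult fast fibres are told apart by their myosin heavy chain, Myh2 for type IIA, Myh1 for type IIX and Myh4 for type IIB, while Acta1 and Ckm are also used by heart muscle. None of these fast myosins is a normal product of the smooth muscle that makes up the aortic wall.

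The 3 fast myosin genes lie side by side on chromosome 11, in the order Myh2, Myh1, Myh4. Their promoters are shown because the genes are neighbours of one family and all were highest on an HDAd-0 array, though not the same ones. Acta1 is shown beside them because it had another pattern. Promoter sequences were found for 7 of the 10 genes in the RefSeq table (GRCm38.p6), and the 250 bases before the annotated start are printed 5′ to 3′ on the gene's strand. Capitals mark the longest run of letters common to Myh1, Myh2 and Myh4, and in Acta1 a CArG box, the kind of site that serum response factor binds.
Myh2 (chr11:67170777-67171026, plus strand): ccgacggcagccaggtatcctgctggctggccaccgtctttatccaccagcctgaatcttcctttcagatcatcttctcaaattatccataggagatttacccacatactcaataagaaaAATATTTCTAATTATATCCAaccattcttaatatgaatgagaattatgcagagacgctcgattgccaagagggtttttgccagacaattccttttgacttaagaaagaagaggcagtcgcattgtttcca
Myh1 (chr11:67199852-67200101, plus strand): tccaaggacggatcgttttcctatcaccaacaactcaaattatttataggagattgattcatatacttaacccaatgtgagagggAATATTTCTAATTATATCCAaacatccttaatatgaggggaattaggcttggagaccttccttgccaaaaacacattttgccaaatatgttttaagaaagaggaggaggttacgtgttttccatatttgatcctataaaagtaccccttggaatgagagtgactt
Myh4 (chr11:67237562-67237811, plus strand): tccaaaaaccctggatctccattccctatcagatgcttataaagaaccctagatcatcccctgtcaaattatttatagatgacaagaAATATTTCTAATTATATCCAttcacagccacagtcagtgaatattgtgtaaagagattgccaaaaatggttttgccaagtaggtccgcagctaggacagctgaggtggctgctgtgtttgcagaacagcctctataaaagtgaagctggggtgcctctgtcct
Acta1 (chr8:123894776-123895025, minus strand): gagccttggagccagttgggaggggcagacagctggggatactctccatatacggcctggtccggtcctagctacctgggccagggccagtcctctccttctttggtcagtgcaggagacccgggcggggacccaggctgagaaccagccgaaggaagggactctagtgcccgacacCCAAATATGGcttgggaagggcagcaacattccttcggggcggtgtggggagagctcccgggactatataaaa
The common run of 20 bases, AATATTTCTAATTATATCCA, began 165 bases before the start of Myh1, 130 before that of Myh2 and 163 before that of Myh4. Of 32851 promoter windows of the same length, 3 (0.00913%) held it on either strand, which are these 3. The run was chosen as common to them, so its presence there was fixed in advance, and the share is a description only. A CArG box by its usual consensus stood 73 bases before the start of Acta1 and, not in capitals, 104 before that of Myh4, and was in 1.47% of all windows. The consensus site of MEF2 factors, which act in muscle genes, was in Myh1 and Myh4, 211 and 182 bases before the start, and in 2.92% of all windows. The E box, CANNTG, which myogenic factors such as MyoD bind, was in 5 of the 7 members' windows and in 66.2% of all windows. All were sought on both strands and are matches of letters only. In the members' windows no match overlapped another (0 pairs).

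The fibre genes were carried by few arrays. The probe sets of the 10 genes had a median range of 1.97 on the log2 scale over the 9 arrays, against 0.47 for all 45037 probe sets tested, and 12 of 16 ranged over more than 1, against 10.4% of all. In 9 of the 16 probe sets, HDAd-0 replicates 4 and 5 both lay above the other 7 arrays, which was so for 3.00% of all probe sets. These were all 3 of Myh1, 2 of Tnni2, and those of Myh2, Tnnt3, Mylpf and Atp2a1. The dimmest Myh1 probe set counted only narrowly, at 3.15 on HDAd-0 replicate 4 against at most 3.12 on the other 7 arrays. HDAd-0 replicate 5 was the highest array for 7 of the 10 genes, by the brightest probe set of each. The third HDAd-0 array, replicate 3, lay among the PBS and HDAd-gE3 arrays for most of them. The runs of high arrays were noticed in these values and are given as a description.

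**Figure D1:**
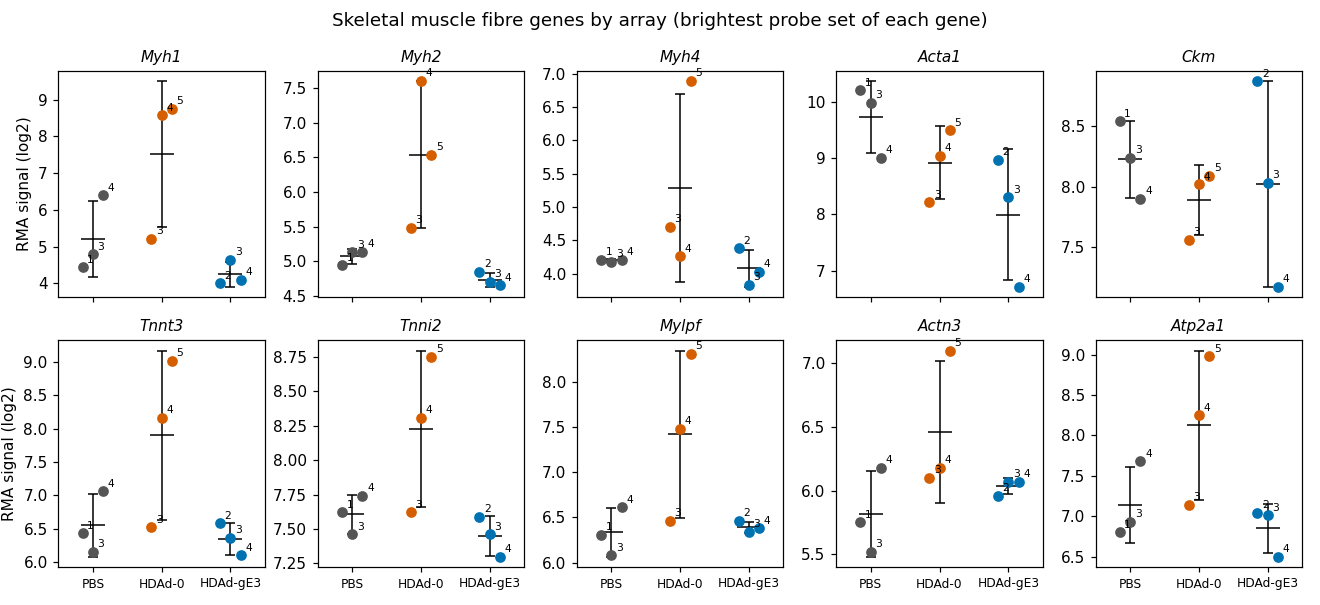
RMA signal (log2) of the brightest probe set of each gene on every array, 3 arrays per group; digits are replicate numbers, the horizontal bar is the group mean and the vertical bar its SD. HDAd-0 replicates 4 and 5 stand above the rest for 6 genes (Myh1, Myh2, Tnnt3, Tnni2, Mylpf and Atp2a1), while Acta1 and Ckm are highest on PBS replicate 1 and HDAd-gE3 replicate 2.

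Among the heavy chains, the brightest Myh1 probe set read 4.44, 4.79 and 6.40 with PBS (replicates 1, 3 and 4), 5.22, 8.58 and 8.75 with HDAd-0 (replicates 3, 4 and 5) and 4.0, 4.64 and 4.10 with HDAd-gE3 (replicates 2, 3 and 4), on the log2 scale and in this order throughout. The high arrays were HDAd-0 replicates 4 and 5, followed by PBS replicate 4. Within HDAd-0, replicate 5 was 11.6-fold above replicate 3. A second Myh1 probe set read 3.18, 3.30 and 5.35 with PBS, 4.25, 7.49 and 7.77 with HDAd-0 and 2.61, 3.40 and 2.26 with HDAd-gE3, and put the arrays in nearly the same order. The third stayed between 2.86 and 3.22, below the lower quartile of every array, so that it showed little on any array.

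Myh2, the type IIA heavy chain, read 4.94, 5.13 and 5.14 with PBS, 5.48, 7.60 and 6.54 with HDAd-0 and 4.85, 4.70 and 4.65 with HDAd-gE3. Here replicate 4 of HDAd-0 was the highest array, not replicate 5, and the 3 groups did not overlap in any pair. The gap between PBS and HDAd-gE3 was narrow, with the lowest PBS array at 4.94 and the highest HDAd-gE3 array at 4.85. Myh4, the type IIB heavy chain, read 4.21, 4.18 and 4.21 with PBS, 4.70, 4.26 and 6.89 with HDAd-0 and 4.38, 3.83 and 4.03 with HDAd-gE3. Its signal stood well above the array's lower quartile on HDAd-0 replicate 5 alone, and HDAd-0 replicate 4, where Myh1 and Myh2 were high, read like PBS. The dimmer Myh4 probe set had the same highest array, at 4.46, with the other 8 between 3.68 and 3.92. The 3 heavy chains thus differed in which of these arrays were high. Myosin heavy chain genes are close copies of each other, and the suffix of the brightest Myh1 probe set's name marks probes that can also match related transcripts, so their signals may not be fully separate.

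Both troponin subunits gave a common order of the high arrays. Tnnt3, the fast subunit that ties troponin to tropomyosin, read 6.43, 6.15 and 7.06 with PBS, 6.52, 8.16 and 9.02 with HDAd-0 and 6.58, 6.36 and 6.10 with HDAd-gE3. Tnni2, the fast inhibitory subunit, read 7.62, 7.46 and 7.74 with PBS, 7.62, 8.31 and 8.75 with HDAd-0 and 7.59, 7.46 and 7.30 with HDAd-gE3. For both genes HDAd-0 replicate 5 was the highest, replicate 4 the next and PBS replicate 4 the third. Over the 9 arrays Tnnt3 and Tnni2 had a Pearson r of 0.992, with HDAd-0 replicates 4 and 5 setting much of it. In RefSeq (GRCm38.p6) the coding gene Lsp1 is the only one between Tnni2 and Tnnt3 on chromosome 7. A second Tnni2 probe set gave the same high arrays, at 5.93 and 6.31 against 4.85 to 5.53 on the others, while the third stayed between 3.01 and 3.50.

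Mylpf, the fast regulatory light chain that sits on the neck of myosin, read 6.31, 6.08 and 6.61 with PBS, 6.46, 7.48 and 8.31 with HDAd-0 and 6.46, 6.34 and 6.38 with HDAd-gE3. Atp2a1 (SERCA1), the pump that returns calcium to the reticulum of fast fibres, read 6.80, 6.93 and 7.68 with PBS, 7.14, 8.25 and 8.98 with HDAd-0 and 7.04, 7.01 and 6.50 with HDAd-gE3. Both had the order of the troponins, replicate 5 above replicate 4 of HDAd-0 and both above all else. Actn3, the actinin of the Z disc of fast glycolytic fibres, read 5.75, 5.52 and 6.18 with PBS, 6.10, 6.18 and 7.10 with HDAd-0 and 5.96, 6.07 and 6.07 with HDAd-gE3. It was high on HDAd-0 replicate 5 alone, as Myh4 was.

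Acta1 and Ckm did not follow the other 8 genes. Acta1, the skeletal alpha-actin, read 10.20, 9.98 and 9.0 with PBS, 8.21, 9.04 and 9.49 with HDAd-0 and 8.97, 8.30 and 6.71 with HDAd-gE3. Its highest arrays were PBS replicates 1 and 3, its lowest was HDAd-gE3 replicate 4, and HDAd-gE3 lay wholly below PBS. Ckm, which keeps ATP supplied in contracting muscle, read 8.54, 8.24 and 7.90 with PBS, 7.56, 8.02 and 8.09 with HDAd-0 and 8.87, 8.03 and 7.17 with HDAd-gE3. All 3 groups overlapped, and the range was widest within HDAd-gE3. The second Ckm probe set stayed between 4.45 and 5.25 and also had its lowest array in HDAd-gE3 replicate 4. Acta1 and Ckm had a Pearson r of 0.758 with each other over the 9 arrays, and Acta1 had one of 0.276 with Tnnt3 and Ckm one of 0.0725.

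The first comparison sets HDAd-gE3 against the empty vector, which lacks the apolipoprotein cassette. The members' means were lower with HDAd-gE3 for 15 of 16 probe sets, where 54.6% of all were, with a median difference of -0.88 (log2) against -0.02 over all probe sets tested. Myh2 differed by -1.81 ± 0.42 (SE; 4.73 against 6.54; limma, adjusted p = 0.22), the brightest Myh1 probe set by -3.27 ± 0.89 (adjusted p = 0.244) and Tnnt3 by -1.56 ± 0.54 (adjusted p = 0.32). Atp2a1 differed by -1.27 ± 0.43, Mylpf by -1.02 ± 0.38, Tnni2 by -0.77 ± 0.24, Myh4 by -1.21 ± 0.57, Acta1 by -0.92 ± 0.58, Actn3 by -0.42 ± 0.26 and Ckm by 0.13 ± 0.38. None of the 16 probe sets passed the threshold of 0.05 on p adjusted over all probe sets, and neither did any other (limma, 0.00% called). At an unadjusted p under 0.05, 9 of 16 were lower and 0 higher, where 6.76% of all probe sets were lower. For 9 of 16, all lower with HDAd-gE3, every HDAd-gE3 array lay outside the HDAd-0 range, where 9.56% of all probe sets were. These 9 were the 3 of Myh1, 2 of Tnni2, and those of Myh2, Mylpf, Actn3 and Atp2a1. The dimmest Myh1 probe set is among them by -0.23 ± 0.079, at levels below the lower quartile of every array.

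Most of this difference lay in HDAd-0 replicates 4 and 5. Without replicate 5 the median difference was -0.54, and without both, in a fit chosen after seeing the data in which replicate 3 stood alone for its group and was assumed to vary like the others, it was -0.20. In that last fit Myh2 differed by -0.75 ± 0.12 and passed (limma, adjusted p = 0.0274, the lowest of 18 alternatives, whose highest was 0.485), as did 1727 probe sets in all.

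The second comparison, of the empty vector with the vehicle, shares the HDAd-0 arrays with the comparison above. Here 13 of 16 probe sets had a higher mean with HDAd-0, where 52.9% of all did, with a median difference of 0.63 against 0.01 over all probe sets. The brightest Myh1 probe set differed by 2.30 ± 0.89 (7.51 against 5.21; limma, adjusted p = 0.357), Myh2 by 1.46 ± 0.42 (adjusted p = 0.255) and Tnnt3 by 1.35 ± 0.54 (adjusted p = 0.365). Mylpf differed by 1.08 ± 0.38, Myh4 by 1.08 ± 0.57, Atp2a1 by 0.99 ± 0.43, Actn3 by 0.64 ± 0.26 and Tnni2 by 0.62 ± 0.24, while Acta1 and Ckm leaned the other way, by -0.81 ± 0.58 and -0.34 ± 0.38. No member passed (limma, 0.00888% of all probe sets called); 8 of 16 were higher, and 0 lower, by unadjusted p under 0.05, where 6.59% of all were higher. The groups did not overlap for 2 of 16, the brighter Myh4 probe set and Myh2, both higher with HDAd-0, where 9.43% of all probe sets were. Without HDAd-0 replicate 5 the median was 0.30, and without replicates 4 and 5 together (chosen after seeing the data) it was 0.039.

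HDAd-gE3 and PBS differed by less than the SE for most of the fast fibre genes; this comparison shares its arrays with both others. Over all 16 probe sets the median difference was -0.20, against -0.0047 over all tested, and 13 of 16 had a lower mean with HDAd-gE3, where 51.3% of all did. Acta1 had the largest difference, at -1.73 ± 0.58 (7.99 against 9.73; limma, adjusted p = 0.35), and the groups did not overlap. The brightest Myh1 probe set differed by -0.96 ± 0.89, Myh2 by -0.34 ± 0.42, Atp2a1 by -0.29 ± 0.43, Ckm by -0.20 ± 0.38, Tnnt3 by -0.20 ± 0.54, Tnni2 by -0.15 ± 0.24, Myh4 by -0.12 ± 0.57, Mylpf by 0.06 ± 0.38 and Actn3 by 0.22 ± 0.26. No member passed (limma, 0.00222% of all called), 1 was lower and 0 higher by unadjusted p under 0.05 (5.47% of all lower), and 3 of 16 did not overlap, all lower (10.3% of all). Those 3 were Acta1, Myh2 and the second Tnni2 probe set. The median was -0.35 without HDAd-gE3 replicate 2, -0.088 without HDAd-gE3 replicate 4 and -0.10 without PBS replicate 4. The errors of the heavy chains are wide enough that this does not show equal levels. Of the 8 genes other than Acta1 and Ckm, HDAd-0 had the highest group mean in all 8, and in 6 of them PBS came next and HDAd-gE3 last, with no difference between neighbouring groups past the threshold.

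**Figure D2:**
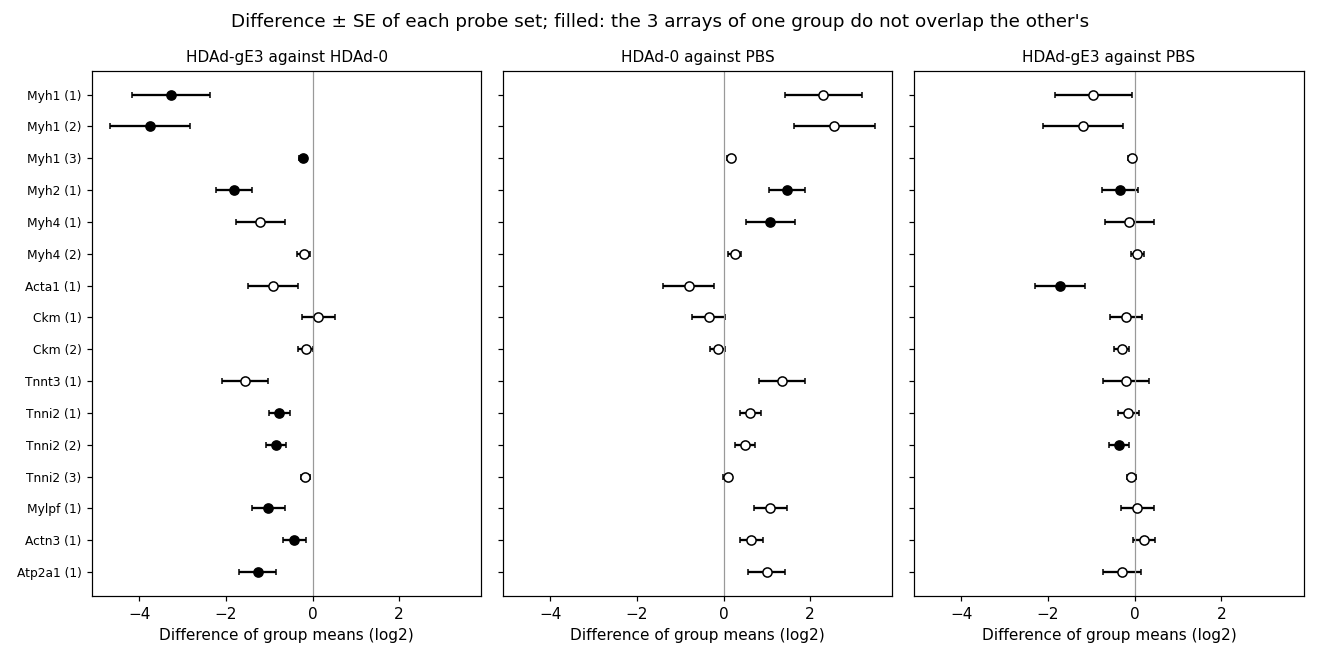
Difference of group means (log2) with its SE for each of the 16 probe sets (numbered within a gene from the brightest) in the 3 comparisons; filled points are probe sets whose 3 arrays in one group do not overlap those of the other. Points lie left of 0 in HDAd-gE3 against HDAd-0, apart from the brighter Ckm probe set, mostly right of 0 in HDAd-0 against PBS, and closer to 0 in HDAd-gE3 against PBS, apart from Acta1 at -1.73 and the brighter Myh1 probe sets at -0.96 and -1.19.

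Other genes of the fast fibre gave a divided picture. Of 20 further sarcomere and calcium release genes, 11 had a higher and 9 a lower mean with HDAd-gE3 than with HDAd-0 (median difference 0.05), and none passed in any comparison (limma). At an unadjusted p under 0.05, 3 were higher and 2 lower there, and 1 was higher and 3 lower with HDAd-0 than with PBS. Of all 45037 probe sets, 2737 were higher and 3044 lower in the former comparison, and 2970 and 2591 in the latter. Trdn (triadin, which anchors the calcium release complex and is also made in heart) differed by -1.24 ± 0.42 between HDAd-0 and PBS, Myl1 (an essential light chain) by -0.77 ± 0.34 and Casq1 (the calcium store of fast fibres) by -0.03 ± 0.20. Between HDAd-gE3 and HDAd-0 they differed by 0.81 ± 0.42, 1.15 ± 0.34 and 0.58 ± 0.20, opposite to the direction of most members. Casq1 was also higher with HDAd-gE3 than with PBS, by 0.55 ± 0.20, without overlap. The only genes in this list on which HDAd-0 replicates 4 and 5 topped all others were Tnnc2 and the calcium channel Cacna1s, named after their values were seen. Tnnc2, the fast troponin C, read 6.50, 5.95 and 7.58 with PBS, 7.31, 8.87 and 10.03 with HDAd-0 and 6.66, 6.84 and 6.50 with HDAd-gE3, which is the order of Tnnt3 and Tnni2. Cacna1s stayed between 4.03 and 4.61 on all arrays. Pvalb, the calcium buffer of fast fibres and likewise named after the fact, read 8.77 on HDAd-0 replicate 5 and 6.04 to 7.38 on the other arrays.

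Slow fibre genes, most of which the heart also uses, were mostly not highest on the arrays of the fast genes: 1 of 12 had HDAd-0 replicates 4 and 5 above the other 7 arrays. That gene, named after its values were seen, was Mybpc1, the slow myosin binding protein C, at 6.07 and 5.38 on these arrays and 4.75 to 5.10 on the others. Of 12, 9 had a lower mean with HDAd-0 than with PBS (median difference -0.33) and 5 did not overlap, all lower, where 7.46% of all probe sets were. None passed (limma), and unadjusted p was under 0.05 for 5, with 1 higher and 4 lower. Of all 45037 probe sets, 2970 were higher and 2591 lower at that p between HDAd-0 and PBS. Atp2a2, the pump of slow fibres and heart, differed by -0.26 ± 0.10, and the light chains Myl3 and Myl2 read between 11.80 and 13.59 and between 11.42 and 13.61, both lowest on HDAd-gE3 replicate 4, as Acta1 was. Genes of muscle energy supply had a lower mean with HDAd-0 than with PBS in 13 of 14 (median -0.26; none passed by limma, with 2 lower and 0 higher by unadjusted p under 0.05), with myoglobin (Mb) at 12.37 to 13.06 on the HDAd-0 arrays and 13.06 to 13.42 with PBS. Cox8b and Gpd1, which fat tissue also expresses, read 12.48 to 13.18 and 11.87 to 12.47. In the list of Z disc and giant sarcomere proteins, 9 of 11 were lower with HDAd-0 than with PBS (median -0.89) and 11 of 11 higher with HDAd-gE3 than with HDAd-0 (median 0.57), which is opposite to the direction of the fast fibre members. None passed by limma. At an unadjusted p under 0.05, 7 were lower in the first comparison and 3 higher in the second, where 2591 and 2737 of all 45037 probe sets were. Smpx differed by -1.12 ± 0.34 and 1.18 ± 0.34 in these comparisons, Ldb3 by -0.43 ± 0.10 and 0.43 ± 0.10, and Tcap read 11.51 to 12.66 over all arrays.

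Several regulators of muscle identity were dim. Myogenin (Myog) read between 3.16 and 3.56 and the satellite cell factor Pax7 between 2.83 and 3.24, below the lower quartile of every array, and Myod1 read between 5.26 and 6.08 (Myog and Pax7 named after their values were seen). Mef2c and Six4, which other cells also express, read 11.86 to 12.08 and 7.74 to 8.32. Of the 11 measured genes in this list, 9 had a lower mean with HDAd-gE3 than with HDAd-0 (median -0.10; none passed by limma). Only 1, Myog, was lower there at an unadjusted p under 0.05, by -0.27 ± 0.075, without overlap. Of all probe sets, 6.76% were lower at that p. Against PBS, Myog and Vgll2, a cofactor of muscle transcription, had lower means with HDAd-gE3 without overlap, by -0.20 ± 0.075 and -0.52 ± 0.15 (limma, adjusted p = 0.381 and 0.293); Vgll2, named after its values were seen, read 4.65 to 5.63 over all arrays. Among 11 genes of developing fibres and the neuromuscular junction the medians were -0.10 and, for HDAd-0 against PBS, 0.03. None passed (limma), with 0 and 1 at an unadjusted p under 0.05, where 5781 and 5561 of all 45037 probe sets were. Chrnb1, Dok7 and Chrna1, parts of the acetylcholine receptor and its clustering machinery, read 8.36 to 8.82, 7.35 to 7.90 and 5.62 to 6.36.

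**Figure D3:**
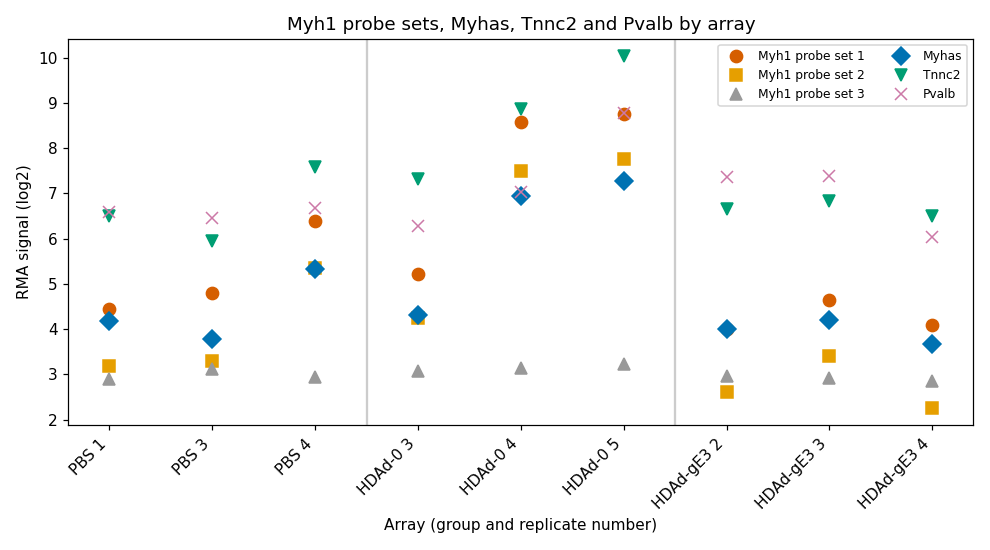
RMA signal (log2) of the 3 Myh1 probe sets, Myhas, Tnnc2 and Pvalb on each array (group and replicate number), 1 marker per array. Both brighter Myh1 probe sets, Myhas and Tnnc2 are highest on HDAd-0 replicates 4 and 5 with PBS replicate 4 next, Pvalb is high on HDAd-0 replicate 5, and the third Myh1 probe set stays between 2.86 and 3.22; levels of different probe sets are not comparable with each other.

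Outside these lists, 18026 genes were ranked by the Pearson r of their brightest probe set with the mean of the members over the 9 arrays, as a description. The 5 most alike were C86187 (r = 0.963), Myhas (0.961), Samt2b (0.955), 4930471M09Rik (0.941) and Tubb3 (0.938). With so few arrays and so many genes, high values arise easily. Without HDAd-0 replicates 4 and 5, the arrays farthest from the median, r was 0.887, 0.761, 0.749, 0.794 and 0.183 in the same order, so that the likeness of Tubb3 rests on them. Myhas is a long noncoding RNA gene that RefSeq places between Myh1 and Myh4, overlapping the end of Myh1, and it read 4.17, 3.79 and 5.32 with PBS, 4.32, 6.94 and 7.27 with HDAd-0 and 4.0, 4.21 and 3.67 with HDAd-gE3. Its high arrays were those of Myh1, and its span was the widest of the 5. The annotation derives the Myhas probe set and the brightest Myh1 probe set from the same sequence record, so the signals may not be separate measurements. C86187, Samt2b and 4930471M09Rik spanned 5.00 to 5.46, 2.83 to 3.31 and 3.37 to 3.88, and Tubb3, a neuronal tubulin, 8.42 to 9.02.

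Markers of other tissues differed between the same arrays. Liver genes were high on the same arrays: 7 of 11 had HDAd-0 replicates 4 and 5 above all others, as 6 of the 10 fibre genes did, and all 11 had a higher mean with HDAd-0 than with PBS (median 1.24). The mean level of the liver list ran from 7.70 to 8.05 with PBS, 8.38 to 9.61 with HDAd-0 and 7.90 to 8.55 with HDAd-gE3, and none of its genes passed (limma). Of its 3 brightest genes, albumin (Alb) and transthyretin (Ttr) were high on HDAd-0 replicate 5 and Cyp2e1 was not. Albumin read 9.56, 10.66 and 11.67 on the HDAd-0 arrays, the order of replicates 3, 4 and 5 in the troponins, but 9.21 to 10.47 with HDAd-gE3, above all 3 PBS arrays, while no member had HDAd-gE3 wholly above PBS. Ttr read 9.65, 9.95 and 11.32 on the HDAd-0 arrays and 8.17 to 8.70 with PBS. Cyp2e1, a cytochrome that fat also expresses, read 12.53, 12.47 and 12.41 on HDAd-0 replicates 3, 4 and 5, and HDAd-gE3 lay wholly below PBS, by -0.31 ± 0.10 (limma, adjusted p = 0.334), as did Ahsg, by -0.39 ± 0.18 (adjusted p = 0.475; named after its values were seen). Heart genes went the other way. All 12 were lower with HDAd-0 than with PBS without overlap (7.46% of all probe sets were), and the list's mean level ran from 12.30 to 12.39 with PBS, 11.22 to 11.89 with HDAd-0 and 11.66 to 12.83 with HDAd-gE3. None of them passed (limma). At an unadjusted p under 0.05, 11 were lower, as were 2591 of all 45037 probe sets. Actc1, Myh6 and Tnnt2 were bright throughout, between 12.52 and 13.71. Relative to its mean over all arrays, the heart list was at 0.80, 0.26 and -0.36 on HDAd-gE3 replicates 2, 3 and 4, where Acta1 and Ckm together were at 0.46, -0.30 and -1.53 and the other 8 fibre genes at -0.46, -0.51 and -0.67.

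**Figure D4:**
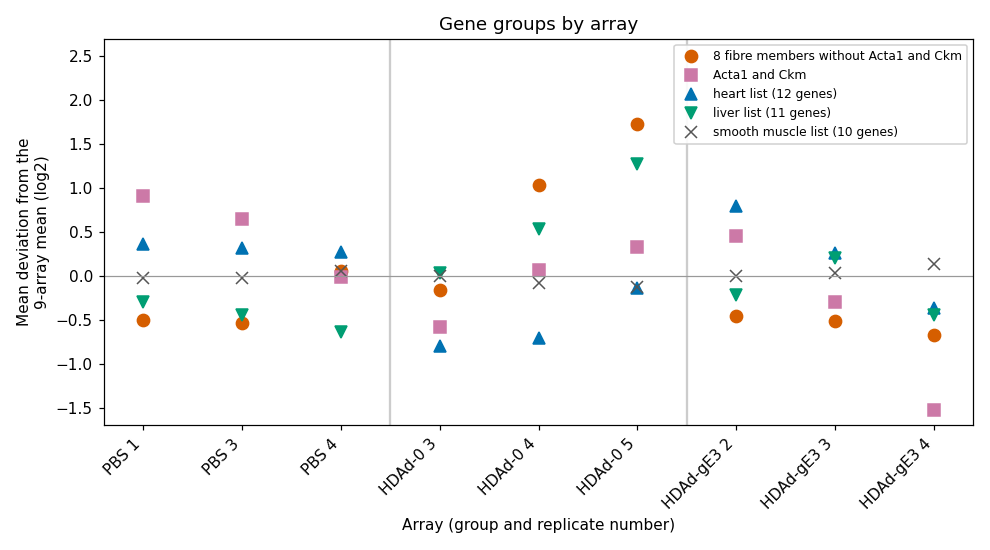
Mean deviation of each gene group from its mean over the 9 arrays (log2), by array (group and replicate number), with 1 marker per group and array. The 8 fibre genes other than Acta1 and Ckm reach 1.04 and 1.73 on HDAd-0 replicates 4 and 5, where the liver list is at 0.53 and 1.27 and the heart list at -0.71 and -0.14, while the smooth muscle list stays between -0.12 and 0.14.

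Smooth muscle, epithelial and macrophage lists had narrower spans than the fibre genes. Smooth muscle genes deviated from their mean by -0.12 to 0.14, stratified epithelium, which the oesophagus carries beside its striated muscle, by -0.19 to 0.14, and macrophage genes (Lyz2, Csf1r and Mpeg1 the brightest) by -0.12 to 0.12. Tagln and Myh11, with Acta2 the brightest smooth muscle genes, read 13.96 to 14.10 and 13.29 to 13.55. The epithelial Trp63 and Krt5 read 6.12 to 7.06 and 5.92 to 6.72. Krt14, a basal keratin, read 5.56, 5.5 and 6.06 with HDAd-0, above the 5.06 to 5.43 of the other arrays. White fat (Fabp4, Adipoq, Retn), brown fat (Ucp1, Cidea, Dio2) and nerve genes (Pmp22, Mbp, Sox10) had list means within -0.23 to 0.28, -0.38 to 0.26 and -0.13 to 0.19 of their average. The mean of the endothelial list differed by group, on all 3 HDAd-0 arrays and not only on those high in fibre genes. It was at 0.09 to 0.32 with HDAd-0, -0.28 to -0.16 with PBS and -0.08 to 0.04 with HDAd-gE3. Against PBS, 4 of its 5 genes were higher with HDAd-0 at an unadjusted p under 0.05, where 6.59% of all probe sets were. The same number did not overlap, where 9.43% of all were higher without overlap, and none passed (limma). Tie1, an endothelial receptor, differed by 0.57 ± 0.072 (adjusted p = 0.081, the smallest for any HDAd-0 against PBS list gene), Pecam1 by 0.56 ± 0.089 and Vwf by 0.41 ± 0.07. Kdr, named after its values were seen, overlapped PBS. Its mean was higher with HDAd-gE3 than with HDAd-0, by 0.24 ± 0.12. The keratins Krt4 and Krt13 read between 4.59 and 5.60 (named after their values were seen). The 3′ minus 5′ difference of the Actb and Gapdh control probe sets, a sign of RNA quality, was 0.957, 1.08 and 0.76 on HDAd-0 replicates 3, 4 and 5, against 0.785 to 0.917 with PBS and 0.673 to 0.809 with HDAd-gE3. This difference was the largest of all arrays on HDAd-0 replicate 4 and below the PBS range on replicate 5. Its part in the fibre results was not tested, since the fit that follows only adds it as a covariate. With this difference in the model, a fit added once the values had been seen, the members' median was -1.24 between HDAd-gE3 and HDAd-0, 0.75 between HDAd-0 and PBS and -0.44 between HDAd-gE3 and PBS, and no member passed (limma). Myh4 differed by -2.41 between HDAd-gE3 and HDAd-0 in that fit, against -1.21 without the covariate. The part of the other tissues in the fibre results was not tested. In pooled tissue, fewer fibres and less RNA per fibre cannot be told apart.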

How the data were processed

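Pooled aortic RNA, extracted with an RNeasy kit, was amplified with FL-Ovation reagents, per the labels' protocols, and read on Affymetrix arrays. The authors deposited 45101 log2 values per array; the submitters' processing notes name RMA, with no version, and the log2 scale was read from the values, which ran from 1.98 to 14.7. RMA corrects background, makes the arrays' distributions alike and summarises probe sets, so it would hide a shift common to most genes, and no detection call was used.

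Groups and replicate numbers came from the labels. Each array is a separate pool, so the p-values measure the spread between pools. Linear models were fitted to 45037 probe sets (64 control probe sets left out) over all 9 arrays, with 6 residual degrees of freedom, using lmFit and eBayes (limma 3.58.1, R 4.3.3); p was two-sided and adjusted by Benjamini-Hochberg over all of them, with a threshold of 0.05. With 3 arrays a side, exact permutation cannot give a p under 0.1, and was not used. The fit was tested on simulated data. Lists (17, with 157 of 167 genes measured alone by a probe set) used each gene's brightest probe set. The named genes are the members, for each list the 3 brightest genes where none passed, and the 5 genes most like the members; exceptions are marked. The members and lists were chosen with earlier results of these data known. Alternatives were 1 probe set per gene, a filter on dim probe sets, other scalings, an intensity trend, array weights, only the groups compared, a replicate block, another threshold and leaving out each array; another 2 were added after seeing the data. Promoters are those of RefSeq (GRCm38.p6), and the members matched it by gene identifier. Figures were drawn with matplotlib 3.10.9.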

Additional observations from a re-analysis of the deposited data

How the results depend on the processing

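No member passed the threshold in any comparison under the alternatives fixed at the start. Of the 3 medians over the members' probe sets, none moved by more than the spread of the member mean between arrays of a group (SD 0.449) under these. This is a loose measure. The spread includes that of the HDAd-0 arrays, whose member means deviated by -0.17 to 1.23, and it exceeds the HDAd-gE3 against PBS median of -0.20. Leaving out each array in turn gave medians of -1.20 to -0.54 for HDAd-gE3 against HDAd-0, 0.30 to 0.87 for HDAd-0 against PBS and -0.35 to -0.088 for HDAd-gE3 against PBS, the last also at -0.10 without PBS replicate 4. With 1 probe set per gene the HDAd-0 against PBS median was 1.03. Without HDAd-0 replicates 4 and 5 together (chosen after seeing the data), 1 member passed in HDAd-gE3 against HDAd-0, and the medians were -0.20 there and 0.039 for HDAd-0 against PBS, with Tnnt3 at -0.024. The cause was not tested.

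Differences of single genes that changed sign were smaller than their SE in the main fit, apart from Tnnt3 in HDAd-0 against PBS. That difference was 1.35 ± 0.54 in the main fit and -0.024 in the fit that kept a single HDAd-0 array (chosen after seeing the data). Ckm in HDAd-gE3 against HDAd-0 was -0.19 with the replicate block and -0.25 with RNA quality (the 3′ to 5′ control difference) in the model (added after seeing the data), and ran from -0.29 to 0.56 when single arrays were left out. In HDAd-gE3 against PBS that covariate gave -0.043 for Actn3 and -0.23 for Mylpf, with a median of -0.44, and leaving out single arrays gave -0.63 to 0.22 for Ckm, -0.27 to 0.0025 for Myh4, -0.065 to 0.20 for Mylpf and -0.40 to 0.057 for Tnnt3.

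The groups share only the replicate numbers 3 and 4. No label says that a number marks a shared batch, so the numbers were not taken as pairs. Across probe sets the deviations of same-numbered arrays correlated at 0.011 to 0.128, and those of differently numbered arrays at -0.206 to 0.189. With the replicate block the medians were -0.59, 0.29 and -0.41 in the 3 comparisons, no member passed, and neither did any other probe set. Over all probe sets the calls were 0, 4 and 1 in the order HDAd-gE3 against HDAd-0, HDAd-0 against PBS and HDAd-gE3 against PBS. They ran from 0 to 1727, 0 to 1399 and 0 to 279 over the alternatives. Signals near the floor limit Myh4, the third probe sets of Myh1 and Tnni2, and Myog and Pax7, for which a change in level might not show. The brighter Myh1 probe sets were also near it on the HDAd-gE3 arrays and PBS replicates 1 and 3. They read 4.0 to 4.79 and 2.26 to 3.40 there, so lower levels might not show. Myh2 read 4.65 to 5.14 on the HDAd-gE3 and PBS arrays, not far above the lower quartile.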

Other observations

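Markers of 2 other thoracic tissues also differed between arrays, in part on other arrays than the fibre genes. The thymus genes Dntt and Rag1, which rearrange antigen receptors in immature lymphocytes, read 9.88, 9.96 and 8.38 and 8.58, 8.85 and 7.09 with PBS, and 7.60, 7.71 and 9.98 and 5.31, 6.15 and 8.74 with HDAd-gE3. Both were thus high on HDAd-gE3 replicate 4, the array lowest in 6 of the 10 fibre genes, as well as on PBS replicates 1 and 3. With HDAd-0 they read 8.65, 8.41 and 9.76 and 7.29, 6.94 and 8.79, high on replicate 5, as the fibre genes were, but not on replicate 4. The airway secretory gene Scgb1a1 read 12.26 on HDAd-gE3 replicate 4, the highest of all arrays, and 9.73 on HDAd-0 replicate 4, the lowest. Scgb3a2 and Sftpc, the next brightest of that list, had the same highest and lowest arrays, at 9.30 and 6.49 and at 5.98 and 4.80. Neither list passed in any gene and comparison (limma), and between HDAd-gE3 and HDAd-0 the unadjusted p was under 0.05 for 1 thymus gene (Cd4) and 0 airway genes. It was under 0.05 there for 5781 of all 45037 probe sets.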
